A study of Mus musculus with 64 samples.

Results

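RNA levels of 4 genes, *Hcn2*, *Hcn3*, *Hcn4* and *Pex5l*, were followed with age in the brains of mice that carry the *Cyfip2* +/R87C allele (KI, a knock-in) and of their wild-type littermates (WT). They were chosen by name, as channel genes of the HCN family and the gene of an auxiliary subunit of these channels, and were matched by Ensembl gene ID among the 18432 genes of the deposited table. The choice was made with earlier results of these data known. All 4 were found and passed the filter on low values in every comparison. The knock-in is heterozygous and in the germline: KI mice carry 1 copy of *Cyfip2*, a regulator of the actin cytoskeleton, with a cysteine codon in place of arginine 87, and both genotypes were on the C57BL/6N background. Bulk frontal cortex (labelled cortex) and hippocampus were sequenced at postnatal week (PWK) 1, 7, 14 and 28, with 4 libraries in each of the 16 groups of region, age and genotype and 64 in all. The study describes KI mice as having spasms as neonates and recurrent seizures and deaths as adults, so that the oldest KI libraries come from survivors. Nothing in the labels says that the 4 libraries of a group came from 4 separate animals, and p-values measure only the spread between these libraries. Both sexes were used in the study, and the labels give no sex for a library.

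HCN channels are cation channels of the plasma membrane that open when the cell is hyperpolarized, and cyclic AMP binds them from inside the cell and eases their opening. The inward current they carry holds the resting potential, shapes how dendrites add up synaptic input and supports rhythmic firing, and changes in HCN channels are known from several models of epilepsy. The subunits differ in speed and in their response to cyclic AMP: the HCN2 and HCN4 channels respond strongly and the HCN3 channel weakly, and HCN4 is the main pacemaker subunit of the heart. *Pex5l* encodes TRIP8b, a cytoplasmic protein related to the peroxisomal import receptor PEX5, which binds HCN channels, sets how many of them reach the membrane and lowers their response to cyclic AMP.

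In the GENCODE annotation of GRCm38, *Hcn2* (ENSMUSG00000020331) lies on chromosome 10 from 79716634 to 79736108 on the plus strand, and *Hcn4* (ENSMUSG00000032338) on chromosome 9 from 58823412 to 58863175 on the plus strand. *Hcn3* (ENSMUSG00000028051) lies on chromosome 3 from 89146074 to 89160196 and *Pex5l* (ENSMUSG00000027674) on the same chromosome from 32949408 to 33143247, both on the minus strand. *Hcn3* overlaps *Pklr* on the opposite strand, and *Pex5l* overlaps 3 non-coding genes on the opposite strand and 2 on its own strand. Whether the quantification used strand is not given in the sources used here, so reads of these genes and their overlapping partners may not have been fully told apart.

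RefSeq (build GRCm38.p6) gave promoters for *Hcn2* and *Hcn4*, which moved in opposite directions as the brain matured. The 250 bases before each RefSeq start are printed to show the pair; the RefSeq start of *Hcn4* lies upstream of the GENCODE start given above. They lie at chr10:79716384-79716633 and chr9:58822699-58822948, both on the plus strand. Capitals mark GGGCGG, the GC box bound by Sp1 family factors, on either strand.
Hcn2: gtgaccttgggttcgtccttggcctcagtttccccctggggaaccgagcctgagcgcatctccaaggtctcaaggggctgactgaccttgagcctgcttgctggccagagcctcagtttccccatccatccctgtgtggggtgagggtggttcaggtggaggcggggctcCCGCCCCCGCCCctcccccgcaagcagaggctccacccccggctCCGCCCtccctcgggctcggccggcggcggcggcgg
Hcn4: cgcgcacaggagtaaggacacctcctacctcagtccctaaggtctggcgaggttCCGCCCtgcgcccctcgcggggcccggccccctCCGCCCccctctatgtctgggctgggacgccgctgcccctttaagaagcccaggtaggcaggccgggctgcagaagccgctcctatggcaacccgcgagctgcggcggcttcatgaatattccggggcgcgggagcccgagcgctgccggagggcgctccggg
The window of *Hcn2* held 3 and that of *Hcn4* 2 such matches, which did not overlap each other, and 32.7% of the 32851 promoter windows of this length in the table held at least 1. The windows were rich in G and C (70.4% for *Hcn2* and 71.2% for *Hcn4*, against a median of 52.4% over all windows) and held 16 and 25 CpG dinucleotides, against a median of 6. Neither held the cyclic AMP response letters TGACG (17.8% of all windows), the full element TGACGTCA that contains them (1.55%) or the E-box CACGTG (6.02%) on either strand. These matches describe the letters of the windows and mark no site.

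Values are normalized counts, that is, the authors' estimated counts after scaling for library size and transcript length, and groups are given as mean ± SD of 4 libraries. Differences are log2 fold changes on the log2(value + 1) scale with their standard error (SE), and a gene is said to have changed where limma's Benjamini-Hochberg adjusted p over all genes tested was under 0.05. The scaled libraries summed to between 29.2 and 32.6 M. *Cyfip2* itself, whose edited codon does not remove the transcript, lay between 14909 and 44053 in WT and between 15311 and 38975 in KI libraries. The tissue markers fitted the labels in part: the 6 neuron genes were all far from 0, and the 5 CA1 pyramidal neuron genes summed to 19374 to 20831 in WT hippocampus and 12068 to 13759.6 in WT cortex at PWK 14, without overlap. In 5 of the 24 cortical libraries from PWK 7 on, *Eomes*, a transcription factor gene of olfactory bulb output neurons, was at 50 or more. These were KI library 1 of PWK 7, WT library 3 and KI library 3 of PWK 14, and WT libraries 3 and 4 of PWK 28. A list of 5 olfactory bulb genes (*Tbx21*, *Cdhr1*, *Doc2g*, *Eomes*, *Th*), chosen after their values were seen, summed to 3123 and 3359.6 in the latter pair and to between 219 and 607 in the other 6 cortical libraries of PWK 28. Where a call, direction or size of the 4 members depended on these libraries, the value without them is given beside it. The genes of the other lists were not fitted again without them.

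The 4 genes differed widely in level. Per kb of exon, *Hcn2* was the highest HCN gene and *Hcn4* the lowest in WT mice of every age and both regions. In WT cortex at PWK 1, the level per kb was 535 for *Hcn2*, 422 for *Hcn3*, 368 for *Pex5l* and 166 for *Hcn4*, and the libraries of *Hcn3* and *Pex5l* overlapped. At PWK 7 the levels per kb in WT cortex were 845 for *Hcn2*, 649.9 for *Pex5l*, 107 for *Hcn3* and 24.8 for *Hcn4*, without overlap between neighbors. In WT hippocampus of that age they were 849 for *Pex5l*, 716 for *Hcn2*, 77.0 for *Hcn3* and 9.38 for *Hcn4*, again without overlap. *Hcn2* and *Pex5l* then overlapped in WT hippocampus at PWK 14 and 28 and in WT cortex at PWK 28. The rank of *Pex5l* depended on the length used: per kb of its longest transcript, which is shorter than the sum of all its exons, it was at 774 in WT cortex at PWK 1 and 1367 at PWK 7, above *Hcn2* at both ages.

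**Figure D1:**
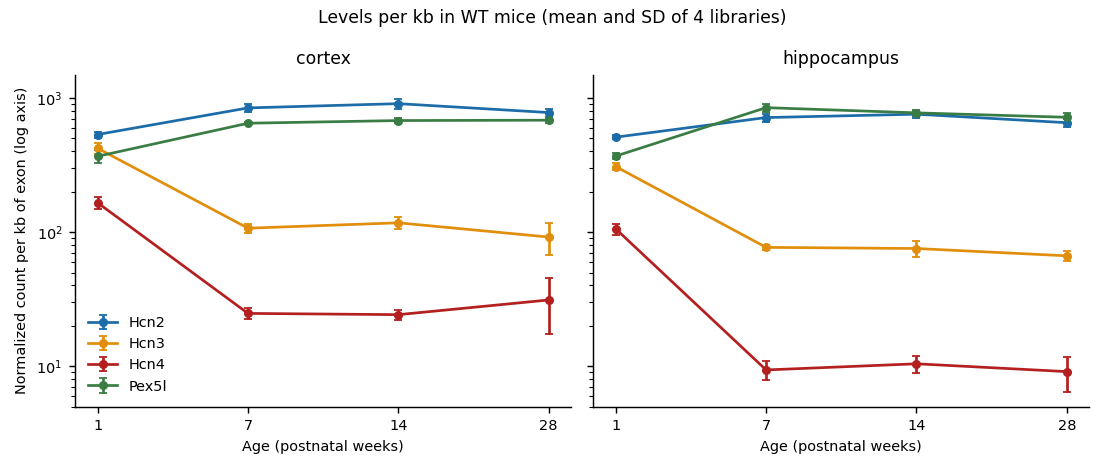
Mean normalized count per kb of exon (log axis) of the 4 genes in WT frontal cortex and hippocampus at each age (postnatal weeks), with bars for the SD of 4 libraries. *Hcn3* and *Hcn4* drop between PWK 1 and 7 and stay low, whereas *Hcn2* and *Pex5l* rise over the same interval; *Hcn4* in WT cortex goes from 166 to 24.8 per kb.

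Between PWK 1 and PWK 7, in which neurons grow their dendrites and synapses, all 4 genes changed in both regions of WT mice. In the cortex 65.3% and in the hippocampus 61.3% of all genes tested changed over the same interval, so that a change over these weeks was the rule and not particular to the members. *Hcn2* rose in WT cortex from 1711 ± 87.3 (SD, n = 4) to 2701 ± 202 (SD, n = 4) (log2 difference 0.66, adjusted p = 1.35e-06) and in WT hippocampus from 1634 ± 48.1 to 2289 ± 165 (log2 difference 0.48, adjusted p = 1.45e-05). *Pex5l* rose with it, from 3256 ± 348 to 5749 ± 104 in cortex and from 3269 ± 184 to 7514 ± 514 in hippocampus, with log2 differences of 0.83 (adjusted p = 4.73e-07) and 1.2 (adjusted p = 1.26e-08). *Hcn2* and *Pex5l* were thus both higher at PWK 7 than at PWK 1 in every WT library.

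*Hcn3* and *Hcn4* fell over the same weeks. In WT cortex *Hcn3* went from 1614, 1969, 1639 and 1797 in the 4 libraries of PWK 1 to 406, 425, 463 and 485 at PWK 7, a log2 difference of -1.98 (SE 0.08, adjusted p = 1.19e-09). In WT hippocampus the log2 difference of *Hcn3* was -2.0 (SE 0.06, adjusted p = 7.96e-10), and its PWK 7 mean was 25.0% of that at PWK 1, against 25.3% in cortex. *Hcn4*, the slow pacemaker subunit, fell further. It went from 634, 690.4, 564 and 700.1 to 59.7, 43.5, 64 and 62.2 in WT hippocampus, where the PWK 7 mean was 8.86% of that at PWK 1 (log2 difference -3.48, SE 0.13, adjusted p = 3.07e-09). In WT cortex it went from 1013 ± 108 to 152 ± 14.0 (log2 difference -2.73, SE 0.10, adjusted p = 4.8e-10). No library of either age overlapped one of the other for any of the 4 genes.

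After PWK 7 the WT levels of the 4 genes differed little between ages, and no member passed the test between PWK 7 and 14 or between PWK 14 and 28. Of all genes tested, 5.32% and 12.0% in cortex and 1.99% and 8.11% in hippocampus passed for these steps, in that order, and 3822, 5222, 3184 and 4513 genes had an unadjusted p under 0.05. *Hcn2* came closest: its WT libraries at PWK 28 all lay below those at PWK 14, with a mean of 2494 ± 164 after 2907 ± 243 in cortex (log2 difference -0.22, adjusted p = 0.0536) and 2095 ± 152 after 2425 ± 155 in hippocampus (log2 difference -0.21, adjusted p = 0.0614). It passed without WT library 1 of PWK 14 in cortex (-0.26, adjusted p = 0.0435) and without WT library 3 of PWK 14 in hippocampus (-0.23, adjusted p = 0.0465), and was -0.14 in cortex (adjusted p = 0.42) without the libraries with olfactory bulb markers. With a correction for GC content and length, the cortical difference was 0.01 (adjusted p = 0.956) and the hippocampal one -0.0039 (adjusted p = 0.971). *Hcn4* in WT cortex was at 191 ± 85.3 at PWK 28 and 148 ± 13.6 at PWK 14, with a log2 difference of 0.24 that became -0.39 without the marked libraries, and neither passed. *Hcn3* in WT cortex was at 274, 329, 415 and 509 at PWK 28 and at 488 ± 50.6 at PWK 14 (log2 difference -0.39, adjusted p = 0.139). The high pair of these libraries were the ones with olfactory bulb markers, and without the marked libraries of both ages the difference was -0.70 and passed (adjusted p = 0.032).

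All 3 HCN genes were lower in WT hippocampus than in WT cortex at PWK 7 and 14, and *Pex5l* was higher. Comparing WT hippocampus with WT cortex, 2 of the 4 genes differed at PWK 1 (34.7% of all genes), 4 at PWK 7 (40.8%), 4 at PWK 14 (34.6%) and 2 at PWK 28 (37.8%). *Hcn4* was lower in hippocampus at each age, with log2 differences (hippocampus minus cortex) of -0.65, -1.4, -1.21 and -1.68 at PWK 1, 7, 14 and 28 and adjusted p of 0.000175, 2.16e-05, 4.37e-05 and 0.00152 in that order. At PWK 14, for example, its libraries were at 52.2, 59.8, 68.6 and 74.4 in hippocampus and 146, 163, 131 and 152 in cortex, with no overlap. The PWK 28 difference was -1.1 (adjusted p = 0.02) without the 2 cortical libraries with olfactory bulb markers. *Hcn3* was also lower in hippocampus at PWK 1, 7 and 14, with log2 differences of -0.45, -0.47 and -0.64 and adjusted p of 0.000409, 0.000515 and 0.000609. At PWK 28 its difference of -0.43 did not pass (adjusted p = 0.0577), and it was -0.12 (adjusted p = 0.5) without the marked libraries and -0.57 (adjusted p = 0.00759) without cortical WT library 1.

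*Hcn2* was slightly lower in WT hippocampus at PWK 7, 14 and 28, with log2 differences of -0.24, -0.26 and -0.25 and adjusted p of 0.0116, 0.0099 and 0.00759. At PWK 1 its difference was -0.06 (95% interval -0.17 to 0.04). *Pex5l* went the other way and was higher in hippocampus at PWK 7 (6887, 7911, 7957 and 7299 against 5748, 5884, 5629.7 and 5734 in cortex; log2 difference 0.38, adjusted p = 6e-05) and at PWK 14 (log2 difference 0.19, adjusted p = 0.013). At PWK 1 and PWK 28 the log2 differences of *Pex5l* were 0.01 (95% interval -0.15 to 0.17) and 0.07 (95% interval -0.06 to 0.20) and did not pass. Without the marked libraries the PWK 28 differences were -0.33 for *Hcn2* (adjusted p = 0.00608) and 0.02 for *Pex5l* (adjusted p = 0.891). The calls at PWK 14 were the same without the cortical WT library with olfactory bulb markers.

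**Figure D2:**
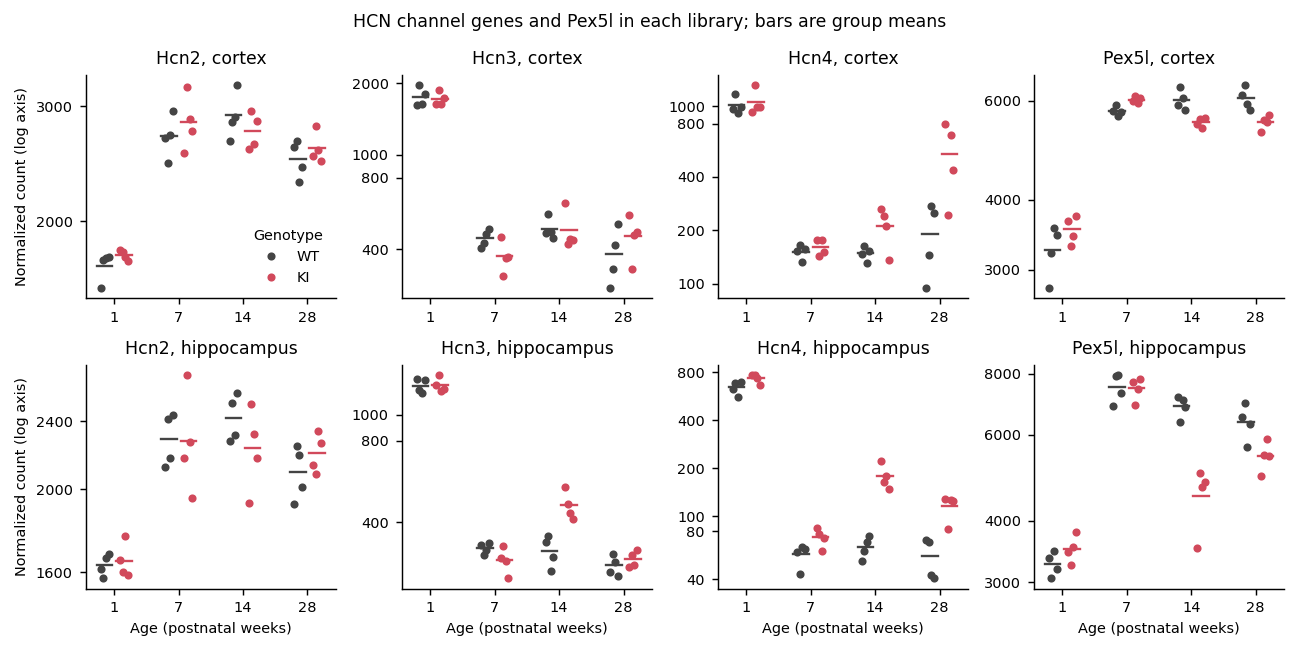
Normalized count (log axis) of each gene in every library by age (postnatal weeks), region and genotype; points are libraries and bars group means (n = 4). *Hcn4* and *Hcn3* of KI hippocampus lie above all WT libraries at PWK 14 and *Pex5l* lies below them, and *Hcn4* of KI cortex reaches 792 at PWK 28.

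The genotypes were compared within each region and age, which follows the study's question of what changes in the brain as the seizures of the KI mice evolve. At PWK 1 and PWK 7 none of the 4 genes differed between KI and WT mice in either region. Of all genes tested, 0.00546% and 0.00545% differed in cortex and 0.0109% and 0.0218% in hippocampus at these ages, while 965, 1477, 1003 and 1144 genes had an unadjusted p under 0.05. Among the members, *Hcn4* in hippocampus at PWK 1 (log2 difference 0.19, 95% interval 0.01 to 0.36, adjusted p = 0.887) and *Hcn3* in cortex at PWK 7 (-0.26, 95% interval -0.49 to -0.02, adjusted p = 0.573) had an unadjusted p under 0.05. The libraries of the genotypes overlapped for all members at PWK 1 in both regions and at PWK 7 in hippocampus, where 3.15% (cortex) and 3.26% (hippocampus) of all genes at PWK 1 and 3.87% at PWK 7 did not overlap. In cortex at PWK 7 the KI libraries of *Pex5l* (5992, 6102, 5939 and 6061) all lay above the WT libraries (5748, 5884, 5629.7 and 5734), as 1 of 4 members where 4.62% of all genes did not overlap (log2 difference 0.07, adjusted p = 0.671). KI library 1 of this group held olfactory bulb markers, and the difference was 0.07 without it.

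In the hippocampus at PWK 14, 3 of the 4 genes differed between the genotypes, where 15.6% of all genes did. *Hcn4* was at 52.2, 59.8, 68.6 and 74.4 in the WT libraries and at 222, 164, 179 and 147 in the KI libraries. Every KI library lay above every WT library, and *Hcn4* was 2.75 times as high in KI mice (log2 difference 1.46, SE 0.18, adjusted p = 0.00161). In bulk tissue a difference in either direction may lie in the number of cells of a type or in the RNA per cell, which cannot be told apart here. The KI mean was still 27.5% of the WT mean of PWK 1, against 9.85% for the WT mean of PWK 14. *Hcn3* was at 338, 355, 265 and 297 in WT and 540.1, 468, 433 and 411 in KI libraries, again without overlap, and was 1.48 times as high in KI mice (log2 difference 0.56, SE 0.12, adjusted p = 0.0168). Its call was lost without WT library 4 (log2 difference 0.54, adjusted p = 0.0521).

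*Pex5l* moved the opposite way. Its WT libraries of PWK 14 hippocampus were at 7179, 6376, 7079 and 6845 and its KI libraries at 3522, 5008, 4692 and 4809. All KI libraries lay below all WT libraries, KI library 1 the farthest, and the KI level was 0.651 times that of WT mice (log2 difference -0.62, SE 0.11, adjusted p = 0.00555). Without KI library 1 the log2 difference was -0.51 (adjusted p = 0.000697). The genotypes thus did not overlap for 3 of 4 members, where 23.8% of all genes did not. *Hcn2* was at 2425 ± 155 (SD, n = 4) in WT and 2235 ± 246 (SD, n = 4) in KI mice, with overlapping libraries and a log2 difference of -0.12 (95% interval -0.31 to 0.07, adjusted p = 0.365). Per kb of exon, *Hcn2* and *Pex5l* were at 759 and 777 in WT hippocampus of this age, with overlapping libraries, and at 699.6 and 509.6 in KI hippocampus, without overlap.

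At PWK 28 *Hcn4* was again higher in KI hippocampus. Its libraries were at 71.1, 68.7, 42.6 and 40.6 in WT and at 128, 83.2, 127 and 124 in KI mice, without overlap, and the level was 2.09 times as high in KI mice (log2 difference 1.06, SE 0.23, adjusted p = 0.01). *Pex5l* was at 6513, 6959, 5663 and 6324 in WT and 4935, 5453, 5896 and 5433 in KI libraries, which overlapped, and was 0.854 times the WT level (log2 difference -0.23, SE 0.07, adjusted p = 0.0443). This call stood near the threshold and was lost without any 1 of 6 of the 8 libraries (adjusted p up to 0.12, without WT library 2). It held only without KI library 3 or WT library 3. Calls were made for 2 of 4 members, where 15.8% of all genes were called, and 1 of 4 did not overlap, where 21.5% of all genes did not. *Hcn3* had a log2 difference of 0.08 (95% interval -0.13 to 0.29) and *Hcn2* of 0.08 (95% interval -0.06 to 0.21), and neither passed.

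**Figure D3:**
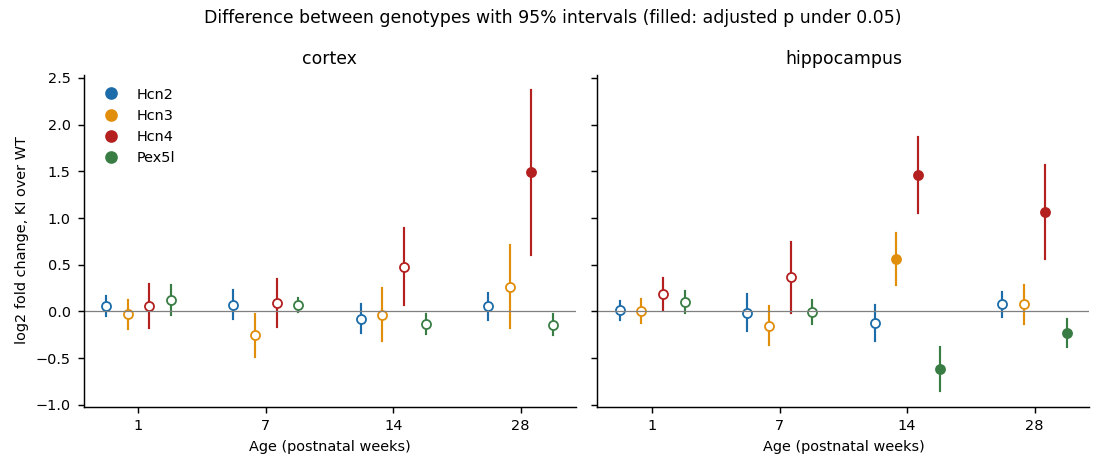
Log2 fold change of KI over WT mice for each gene by age (postnatal weeks) in frontal cortex and hippocampus, with 95% intervals from limma; filled points have an adjusted p under 0.05. The hippocampus at PWK 14 has *Hcn4* at 1.46, *Hcn3* at 0.56 and *Pex5l* at -0.62, whereas the *Hcn2* points lie between -0.12 and 0.08.

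In the cortex the differences were later or smaller. At PWK 14 no member was called, where 5.18% of all genes were and 3786 genes had an unadjusted p under 0.05. *Hcn4* was at 146, 163, 131 and 152 in WT and 263, 241, 211 and 136 in KI libraries, so that 3 KI libraries lay above all WT libraries and the fourth within them (log2 difference 0.48, SE 0.19, adjusted p = 0.172). Without KI library 4 the difference was 0.68 and passed (adjusted p = 0.0175). *Pex5l* was at 6019 ± 253 in WT and 5492 ± 109 in KI mice, without overlap (1 of 4 members, 14.2% of all genes), but with a log2 difference of only -0.13 (SE 0.05, adjusted p = 0.157). Without WT library 3 and KI library 3, which held olfactory bulb markers, the log2 differences were 0.41 for *Hcn4* and -0.12 for *Pex5l* and neither passed.

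At PWK 28, 1 of 4 members differed in the cortex, where 22.2% of all genes did. *Hcn4* was at 94.3, 145, 274 and 250.3 in WT and 792, 245, 694 and 439 in KI libraries, and was 2.81 times as high in KI mice (log2 difference 1.49, SE 0.40, adjusted p = 0.0238). The spread within both groups was wide, and KI library 2 lay below WT libraries 3 and 4. These 2 WT libraries were those with olfactory bulb markers, with *Eomes* at 277 and 296 against 2.65 and 1.83 in the other two, and without them the log2 difference was 2.07 (adjusted p = 0.0295) and the genotypes did not overlap. The call was lost without KI library 1, KI library 3, WT library 1 or WT library 2, with adjusted p of 0.059, 0.0672, 0.0646 and 0.0649. *Pex5l* was at 6056 ± 276 in WT and 5490.5 ± 159.8 in KI mice, with no overlap (1 of 4 members, 25.8% of all genes) and a log2 difference of -0.14 (adjusted p = 0.0753), which was -0.19 (adjusted p = 0.117) without the 2 marked libraries. *Hcn3* (0.27, 95% interval -0.18 to 0.71) and *Hcn2* (0.06, 95% interval -0.09 to 0.20) did not pass, nor did they without those libraries (0.57, adjusted p = 0.12, and -0.02, adjusted p = 0.892).

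**Figure D4:**
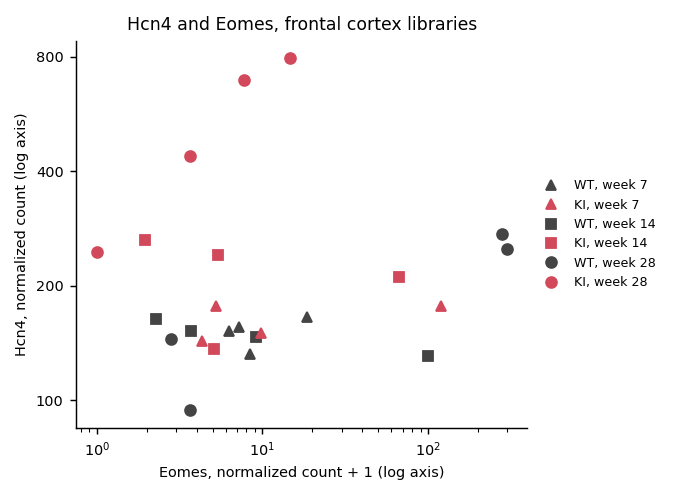
Normalized count of *Hcn4* against that of *Eomes* plus 1 (both log axes) in the 24 frontal cortex libraries of PWK 7, 14 and 28, with 1 point for each library. The WT libraries of PWK 28 with *Eomes* at 277 and 296 hold *Hcn4* at 274 and 250.3, above the other two WT libraries of that age, and the KI libraries of PWK 28 have high *Hcn4* with *Eomes* at 13.6 or less.

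Whether the genotype difference itself changed with age was tested as an interaction. In the hippocampus it differed between PWK 14 and PWK 7 for 3 of 4 members (10.3% of all genes): by 1.1 for *Hcn4* (SE 0.25, adjusted p = 0.0101), 0.71 for *Hcn3* (SE 0.16, adjusted p = 0.00898) and -0.61 for *Pex5l* (SE 0.13, adjusted p = 0.00631) on the log2 scale. In the cortex the same step was called for 1 of 4 (3.18% of all genes), *Pex5l*, at -0.20 (adjusted p = 0.0488), and this call was lost without the libraries with olfactory bulb markers (adjusted p = 0.147) and without any 1 library other than KI library 4 or WT library 4 of PWK 14. Between PWK 28 and PWK 14, no gene of the whole table passed in the cortex (0%, with 2770 at an unadjusted p under 0.05) or the hippocampus (0%, with 2274). For *Hcn4* in the cortex the estimate was 1.01 (adjusted p = 0.343). It lay between 0.93 and 1.65 under the 8 alternatives and passed in none. The estimates for the hippocampus were -0.48 for *Hcn3* (95% interval -0.81 to -0.16), -0.40 for *Hcn4* (-1.04 to 0.24) and 0.39 for *Pex5l* (0.11 to 0.68), each opposite in sign to the step from PWK 7 to PWK 14. These steps share the PWK 14 libraries.

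The genotype difference was then compared between the regions. At PWK 14 the log2 difference of KI from WT mice in hippocampus minus that in cortex was -0.49 for *Pex5l* (SE 0.12, adjusted p = 0.0386), as 1 of 4 members called against 2.85% of all genes. This call was lost without the cortical libraries with olfactory bulb markers (-0.50, adjusted p = 0.105) and without any 1 of 11 of the 16 libraries, the exceptions being KI library 1 of cortex and KI libraries 1, 2 and 4 and WT library 2 of hippocampus. *Hcn4* (0.98, 95% interval 0.41 to 1.55, adjusted p = 0.0577) and *Hcn3* (0.60, 95% interval 0.20 to 0.99, adjusted p = 0.0982) did not pass. Both passed without KI library 1 of cortex (adjusted p = 0.032 and 0.0187), and *Hcn4* also without KI library 4 of hippocampus (adjusted p = 0.04). Of 9 other settings, both passed in 3: the replicate block (adjusted p = 0.0305 and 0.0296), sample weights and the fit of all 64 libraries. The block takes same-numbered cortex and hippocampus libraries as pairs, which the labels do not state. At PWK 28 no member differed between the regions (4.57% of all genes), with a wide interval for *Hcn4* (-0.43, 95% interval -1.49 to 0.64). Without the 2 marked libraries the estimates were -1.0 for *Hcn4* (adjusted p = 0.324) and -0.49 for *Hcn3* (adjusted p = 0.246). None differed at PWK 1 (0% of all genes, 668 at an unadjusted p under 0.05) or PWK 7 (0.00543%, 1070).

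Other genes that act on HCN channels were taken as a list of 14, and 4 of them rose and none fell in KI hippocampus at PWK 14, with a median log2 difference of 0.04 beside 0.01 over all genes, of which 15.6% were called. *Flna*, an actin crosslinker known to bind HCN channels, rose by 0.55 (adjusted p = 0.0179), and *Rest*, a repressor of neuronal genes, by 0.51 (adjusted p = 0.0445). The *Rest* libraries were at 249, 255, 280.3 and 294 in WT and 423, 288, 465 and 382 in KI hippocampus, with 1 KI library within the WT range. *Vapa*, a membrane contact protein that binds HCN channels, rose by 0.25 (adjusted p = 0.0273) and the scaffold gene *Grasp* by 0.76 (adjusted p = 0.0495). At PWK 28 only *Flna* of the 14 rose in KI hippocampus (0.49, adjusted p = 0.0082), and in KI cortex *Flna* and *Mrvi1*, whose product is a known partner of HCN4, rose at PWK 14 (0.51, adjusted p = 0.0191, and 0.90, adjusted p = 0.0369) and *Flna* and *Vapa* at PWK 28 (0.77, adjusted p = 0.0279, and 0.17, adjusted p = 0.0488). No gene of the list fell at these ages, and the list medians, in that order of comparisons, were 0.08, 0.05 and 0.10. Over all genes, 15.8%, 5.18% and 22.2% were called in these comparisons. *Kcne2*, a channel subunit that the choroid plexus also expresses, was not called, and the 5 choroid plexus genes summed to 1964 to 103027 in WT libraries of PWK 14 hippocampus alone.

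Among 24 genes of cyclic AMP synthesis and breakdown, none rose and 4 fell in KI hippocampus at PWK 14 (median -0.08 beside 0.01 over all genes, of which 15.6% were called). They were the adenylyl cyclase gene *Adcy1* (-0.54, adjusted p = 0.0248), the stimulatory G protein gene *Gnal* (-0.27, adjusted p = 0.0227) and the phosphodiesterase genes *Pde1b* (-0.44, adjusted p = 0.0395) and *Pde7b* (-0.83, adjusted p = 0.00484). At PWK 28, 6 rose and 3 fell in hippocampus (median 0.02; 15.8% of all genes were called) and 4 rose and 6 fell in cortex (median -0.10; 22.2% of all genes), among them *Pde7b* (-0.74 in hippocampus, adjusted p = 0.000273, and -1.09 in cortex, adjusted p = 0.00253) and *Pde1a* (0.30, adjusted p = 0.00912, and 1.04, adjusted p = 0.000293). The genes that rose in hippocampus at PWK 28 were *Adcy2* (0.17), *Adcy5* (0.23), *Adcy7* (0.71), *Pde1a* (0.30), *Pde2a* (0.18) and *Pde4b* (0.24), with log2 differences in parentheses, and *Gnal* (-0.23), *Pde7b* (-0.74) and *Pde10a* (-0.24) fell. In cortex at PWK 28, *Adcy7* (0.81), *Gnas* (0.25), *Pde1a* (1.04) and *Pde2a* (0.24) rose and *Adcy8* (-1.05), *Gnal* (-0.54), *Pde1c* (-0.69), *Pde4d* (-0.32), *Pde7b* (-1.09) and *Pde10a* (-0.43) fell. In cortex at PWK 14, 2 rose, *Pde1a* (0.45) and *Pde2a* (0.27), and none fell, where 5.18% of all genes were called. The genes that changed lay on both the synthesis and the breakdown side of the pathway.

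Of 12 leak and inward rectifier potassium channel genes, which set the resting potential together with HCN channels, 2 rose and 4 fell in KI hippocampus at PWK 14 (median -0.08) and 3 rose and 3 fell at PWK 28 (median 0.04). The leak channel gene *Kcnk2* fell in both regions at PWK 14, with log2 differences of -0.59 in hippocampus (adjusted p = 0.00363) and -0.53 in cortex (adjusted p = 0.00302). *Kcnk9* fell in hippocampus (-0.78, adjusted p = 0.011) and *Kcnk1* (0.59, adjusted p = 0.00887) and the inward rectifier gene *Kcnj2* (0.59, adjusted p = 0.0201) rose. The other 2 that fell there were *Kcnk4* (-0.78, adjusted p = 0.0101), a further leak channel gene, and *Kcnj9* (-0.46, adjusted p = 0.0432), which encodes a G protein gated channel. In hippocampus at PWK 28, *Kcnk1* (0.40), *Kcnj2* (1.18) and *Kcnj4* (0.44) rose and *Kcnk2* (-0.52), *Kcnk4* (-0.58) and *Kcnk9* (-0.46) fell. In cortex 0 rose and 1 fell at PWK 14, and at PWK 28 *Kcnk3* (0.26) rose and *Kcnk2* (-0.36), *Kcnk9* (-0.28) and *Kcnj9* (-0.46) fell. Of the 16 peroxin genes, which encode the peroxisome's import and assembly machinery around PEX5, none changed between the genotypes in either region at any age by limma, and at PWK 14 and 28 their medians lay between -0.08 and 0.02. Over all genes, 15.6% and 15.8% were called in hippocampus at PWK 14 and 28, and 5.18% and 22.2% in cortex, the shares against which the counts of both lists stand.

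The 14 partners were also compared between ages and regions of WT mice. Between PWK 1 and 7 in WT mice, 3 rose and 6 fell in cortex and 6 rose and 4 fell in hippocampus (medians -0.15 and 0.10), where 65.3% and 61.3% of all genes changed. In cortex *Mrvi1* (0.87), *Grasp* (1.31) and *Src* (0.28) rose and *Kctd3* (-0.60), *Nedd4l* (-0.21), *Flna* (-1.53), *Filip1* (-0.87), *Ptpra* (-0.49) and *Vapa* (-0.36) fell. In hippocampus *Mrvi1* (0.52), *Lrmp* (1.47), *Nedd4l* (0.16), *Grasp* (1.4), *Src* (0.29) and *Vapb* (0.12) rose and *Kctd3* (-0.42), *Flna* (-1.04), *Apba2* (-0.33) and *Vapa* (-0.25) fell. *Flna*, higher in adult KI mice of both regions, was thus one of those that fell with maturation in WT mice. In WT hippocampus 9 were higher and none lower than in WT cortex at PWK 7 (median 0.37, beside 0.01 over all genes), and 9 higher and 2 lower at PWK 14, where 40.8% and 34.6% of all genes differed. At PWK 7 the higher ones were *Kcne2* (4.27), *Lrmp* (1.43), *Nedd4l* (0.41), *Flna* (0.35), *Filip1* (1.06), *Grasp* (0.35), *Ptpra* (0.60), *Src* (0.26) and *Rest* (0.53), among which *Filip1* encodes an interactor of filamin A and *Ptpra* a phosphatase. The choroid plexus also expresses *Kcne2*, and its gene *Ttr* had a mean of 50051.5 in WT hippocampus and 292 in WT cortex at PWK 7. The part of choroid plexus in the *Kcne2* differences was not tested. At PWK 14 *Kcne2* (3.32), *Mrvi1* (0.53), *Lrmp* (0.76), *Nedd4l* (0.27), *Flna* (0.48), *Filip1* (1.17), *Ptpra* (0.53), *Src* (0.31) and *Rest* (0.74) were higher and *Apba2* (-0.19) and *Vapa* (-0.28) lower.

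Some markers of several cell types shifted with the genotype in the same libraries. The share of all genes called was 15.6% (PWK 14) and 15.8% (PWK 28) for hippocampus, and 22.2% for cortex of PWK 28. A list with 1 of 5 genes called is close to these shares and is not read as a shift of the cell type. In hippocampus at PWK 14 the 5 reactive astrocyte genes summed to 10046 to 12058 in WT and 48574 to 199142 in KI libraries (3 of 5 rose), the 5 CA1 pyramidal neuron genes to 19374 to 20831 and 15248 to 15729.5 (2 of 5 fell), and the 5 GABAergic interneuron genes to 15755 to 17365 and 18541 to 21742 (1 of 5, *Gad2*, rose). The 5 parvalbumin interneuron genes went the other way, with sums of 12019 to 12830.4 in WT and 8385 to 10903 in KI libraries (2 of 5 fell), and of the GABAergic list *Lhx6* (-0.16, adjusted p = 0.411) and *Dlx1* (-0.40, adjusted p = 0.0626) had log2 differences below 0. The 6 neuron genes summed to 141860.0 to 147589 in WT and 134927 to 150295 in KI libraries and none was called. At PWK 28 in hippocampus the sums were 11778 to 12646 and 39022 to 53242 for reactive astrocytes, 17395 to 19062 and 15244 to 17692 for CA1 neurons, and 11663 to 12588 and 9988 to 11158 for parvalbumin interneurons. Of the CA1 list, *Wfs1* had higher means in KI hippocampus, 6350 against 4602 in WT at PWK 14 and 5685 against 4367 at PWK 28. The means of *Fibcd1*, *Pou3f1*, *Mpped1* and *Nr4a3* were lower in KI hippocampus at both ages. In cortex at PWK 28 the GABAergic interneuron genes summed to 17086, 18177, 23859.7 and 24229.7 in WT libraries and 34964, 23883, 32862 and 30149 in KI libraries. WT libraries 3 and 4, the high pair, were those with olfactory bulb markers, and the interneuron genes were not fitted again without them. Of this list 2 of 5 rose in KI cortex, *Gad2* (1.15, adjusted p = 0.00187) and *Slc32a1* (0.65, adjusted p = 0.00297), while *Lhx6* was at -0.01 and *Dlx1* at -0.81 (adjusted p = 0.0783) on the log2 scale. The 5 layer 5 pyramidal neuron genes all fell there and summed to 8998 to 11049.7 in WT and 5668 to 7903 in KI libraries, and the reactive astrocyte genes to 4011 to 5812 and 8055 to 18057 (3 of 5 rose). No gene of these lists was at 0 in all libraries of a group, and the part of these shifts in the differences of the 4 genes was not tested.

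The genes most like each member were sought by Pearson's r of log2 values over the 16 group means, among the 12819 genes with a mean of at least 100, as a description. These means share their libraries' age, and most of the variation between them is that of PWK 1 against the rest. *Hcn4* was most like *Adam19* (r = 0.98), *Slc27a4* (r = 0.98) and *Kpna2* (r = 0.98), and *Hcn3* most like *Foxk2* (r = 0.99), *Sqle* (r = 0.99) and *Vav2* (r = 0.99). *Hcn2* was most like *Nat8l* (r = 0.98), *Plekhm2* (r = 0.98) and *Tmem25* (r = 0.98), and *Pex5l* most like *Rnf167* (r = 0.97), *Fam173a* (r = 0.96) and *Anks3* (r = 0.96). Among themselves, *Hcn3* and *Hcn4* went together over the group means (r = 0.92) and against *Pex5l* (r = -0.93 and -0.90). Over the 64 deviations of single libraries from their group means, which leave out age, region and genotype, *Hcn3* and *Hcn4* had r = 0.62, while *Pex5l* had r = -0.27 with *Hcn3* and -0.21 with *Hcn4*. There the most like gene was *Brsk1* (r = 0.76) for *Hcn2*, *Cmip* (r = 0.75) for *Hcn3*, *Snx7* (r = 0.74) for *Hcn4* and *Hivep2* (r = 0.74) for *Pex5l*, followed by *Zmiz2* (r = 0.76) and *Map3k10* (r = 0.76), *Disp2* (r = 0.67) and *Bcat1* (r = 0.66), *Plod2* (r = 0.68) and *Hhipl1* (r = 0.67), and *Trim37* (r = 0.73) and *Frmpd4* (r = 0.73), in that order of members.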

How the data were processed

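Poly(A)-selected, stranded RNA-seq libraries (101-base paired reads) of bulk frontal cortex and hippocampus were quantified by the authors. Per the labels, Salmon 0.11.2 estimated counts on GRCm38 transcripts and DESeq2 1.19.11 in R 3.6.0 scaled them; the study's methods name other versions and a total RNA kit, a difference that could not be settled here. The deposited signal is 1 table of counts normalized by the authors for library size and transcript length over all 64 libraries, so raw depth is unknown, and precision rests on the spread of 4 libraries per group. Every column was matched to a sample by its label. Of 18432 genes 18420 matched the GENCODE annotation by ID.

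Values were tested with limma 3.58.1 (trend, R 4.3.3) on log2(value + 1), over genes with a mean of at least 1 in the libraries fitted, with Benjamini-Hochberg adjustment over all genes and a threshold of 0.05. Each fit held only the groups compared, in 26 comparisons. Scripts were tested on simulated data. Named genes were the members, the genes of the lists that passed the test, and the 3 genes with the highest Pearson's r with each member. The members and lists were chosen with earlier results of these data known, and the olfactory bulb list and the leaving out of 5 libraries with *Eomes* at 50 or more were added after the data were seen. Alternatives were another pseudocount (10), no filter or a mean of at least 10, total-sum scaling, a fit of all 64 libraries, sample weights, a GC and length correction, a replicate block and leaving out each library. Likeness used Python 3.11.15.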

Additional observations from a re-analysis of the deposited data

Results flagged for a closer look

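In 4 of the 64 sets of 4 libraries of a member, 1 library stood apart from the other 3 by more than Dixon's 95% critical value, and chance gives about 1 in 20. The lowest *Hcn2* library of WT cortex at PWK 1 was at 1580.2. The highest *Hcn3* library of KI cortex at PWK 14 was at 625. The highest *Hcn4* library of KI cortex at PWK 1 was at 1326. The lowest *Hcn4* library of KI hippocampus at PWK 28 was at 83.2, which still lay above all WT libraries.

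The genotype difference (log2 of KI over WT) differed between ages or regions, by the interaction in limma, in 5 cases. For *Pex5l* in cortex it changed by -0.20 from PWK 7 to PWK 14. In hippocampus, over the same step, it changed by 0.71 for *Hcn3*, by 1.1 for *Hcn4* and by -0.61 for *Pex5l*. At PWK 14 it was -0.49 for *Pex5l* in hippocampus relative to cortex.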

How the results depend on the processing

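The 104 log2 differences of the members were recomputed under the alternatives, giving 1952 values, of which 44 lost a call, 22 gained one and 1886 stayed on their side of the threshold. Of the latter, 58 changed sign, all of them uncalled before and after, and no called value changed sign. The libraries with olfactory bulb markers were chosen to be left out after the data were seen. The counts of members called that moved by more than 1.5 times were these. KI against WT: in cortex at PWK 28, 2 with total-sum scaling (*Pex5l* was added); in hippocampus at PWK 28, 1 without a filter on low values, with the GC and length correction and with the replicate block (*Pex5l* was lost, adjusted p = 0.0823 with the block). WT cortex, PWK 28 against 14: 2 in the fit of all 64 libraries (*Hcn2*, *Hcn3*), and 1 with sample weights and without the libraries with olfactory bulb markers. The KI effect between PWK 7 and 14 in cortex: 0 with total-sum scaling, the fit of all 64 libraries, the GC and length correction and without those libraries (adjusted p of *Pex5l* between 0.0683 and 0.331 in these). Between PWK 14 and 28 in hippocampus: 1 in the fit of all 64 libraries (*Pex5l*). Hippocampus against cortex at PWK 14: 3 in the fit of all 64 libraries, with sample weights and with the replicate block (*Hcn3* and *Hcn4* were added), and 0 without those libraries. Why these counts moved was not tested, though the last setting also holds fewer samples. Leaving out 1 library gave counts of 0 to 1 for cortex at PWK 14, 0 to 1 for cortex at PWK 28, 1 to 2 for hippocampus at PWK 28, 0 to 1 for WT PWK 28 against 14 in both regions, 0 to 1 for the cortical and 0 to 3 for the regional KI effect. Smaller moves of a count were 2 to 3 for hippocampus at PWK 14 (*Hcn3* was lost without WT library 4) and for the WT regions at PWK 28 (*Hcn3* passed in the fit of all 64 libraries, with sample weights and without cortical WT library 1).

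The replicate block changed no other call. Same-numbered libraries of cortex and hippocampus had correlated deviations in 17 of 32 pairs (r over 0.1, mean 0.14), and same-numbered KI and WT libraries in 10 of 32 (mean 0.026). The mean r between different numbers was -0.0461 and -0.00905, and 19 and 10 of 32 correlated best with their own number. The labels state no pairing, so the main fits did not take the numbers as pairs, though the first check hints at a link between same-numbered cortex and hippocampus. No paired analysis was possible for the KI effect between ages because no number ties libraries across ages. The rank of *Pex5l* per kb differed between the exon sum and the longest transcript in 12 of 16 groups. With 4 libraries per group, no raw counts and wide spread in *Hcn4* at PWK 28, small differences could not be told from none.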
